A study of Mus musculus with 12 samples.

Results

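Genes of glycolysis and of the response to low oxygen were followed across 4 sorted cell populations of mouse skin. The set was a list of 37 gene symbols, of which 25 belong to glucose uptake, glycolysis and lactate handling and 12 to oxygen sensing and the hypoxia response. The array annotation named a probe set of its own for 34 of the 37, out of 19938 genes measured. These were 22 glycolysis genes and all 12 hypoxia genes, with the listed Ero1l found under its current symbol Ero1a. Gapdh was on 25 probe sets that also carry other gene symbols, and Gpi1 and Eno1 had no probe set named here, so these 3 genes were not analysed. Each gene was read on 1 probe set, the one with the highest mean over the 12 arrays.

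The cells came from the skin of untreated C57BL/6 mice, wild type and kept specific-pathogen-free. The 4 groups, of 3 Affymetrix arrays each, were MHC-II-positive melanophages, MHC-II-negative melanophages, MHC-II-positive macrophages and MHC-II-negative macrophages. All 4 were sorted as CD11b-positive, CD64-positive cells lacking CD24, CCR2 and Ly6C. Melanophages, the macrophages of skin that hold melanin, were taken as cells of high side scatter. For the macrophages the labels disagree, since their titles give high side scatter and their phenotype entries low. The labels give no age or sex and do not say whether arrays of a group came from separate mice, so each p-value reflects the array-to-array spread alone, which may be technical. Values are log2 expression levels, and array medians lay between 2.97 and 3.08. A group mean under 4 is called dim, and a difference whose lower group was dim is a lower bound. In bulk samples, fewer cells that express a gene and less RNA per cell cannot be told apart.

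The sorted populations carried the marker genes of macrophages. The array mean of 14 macrophage markers was 8.54 to 8.68 in MHC-II-positive melanophages, 8.57 to 8.65 in MHC-II-negative melanophages, 8.75 to 9.01 in MHC-II-positive macrophages and 8.65 to 8.93 in MHC-II-negative macrophages. Of these markers only the chemokine receptor gene Cx3cr1 passed between the cell kinds, lower in melanophages at -1.54 ± 0.23 (limma, adjusted p = 0.0433). Of 10 melanocyte genes, 9 were dim in every group, and Mitf, which macrophages also express, was not. Replicate 1 of the MHC-II-negative macrophages and replicate 3 of the MHC-II-positive macrophages stood farthest from their group mates, so results were also computed without both, a choice made after seeing the data.

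Glycolysis turns glucose into pyruvate, and cells that lean on it convert much of the pyruvate into lactate and export it. Its enzymes and its glucose importers are among the classic targets of hypoxia-inducible factor, a transcription factor whose alpha subunit is marked for destruction by prolyl hydroxylases while oxygen is present. Macrophages raise glycolysis both when oxygen falls and when inflammatory signals activate them.

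Of the 34 genes, 11 were dim in all 4 groups. They were the glucose transporter Slc2a3, the liver and muscle phosphofructokinases Pfkl and Pfkm, the aldolase Aldoc, the phosphofructokinase regulator Pfkfb4, the enolase Eno2, the monocarboxylate transporter Slc16a1, the pyruvate dehydrogenase kinase Pdk1, the prolyl hydroxylase Egln3, the vasodilator peptide gene Adm and the collagen prolyl hydroxylase subunit P4ha2. The lactate dehydrogenase Ldhb and the platelet-type phosphofructokinase Pfkp were dim in some groups, and 21 genes were not dim in any. The level of Hk1, a hexokinase, is uncertain. Its kept probe set averaged 9.69 over the 12 arrays while the other Hk1 probe set averaged 3.02. A further 16 probe sets annotated to Hk1 together with the ribosomal gene Rpl17 averaged 9.95 to 11.9. The spread within groups also differed among the genes, with a pooled SD of 0.086 for P4ha2 at the low end and 0.596 for the mitophagy gene Bnip3 at the high end.

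**Figure D1:**
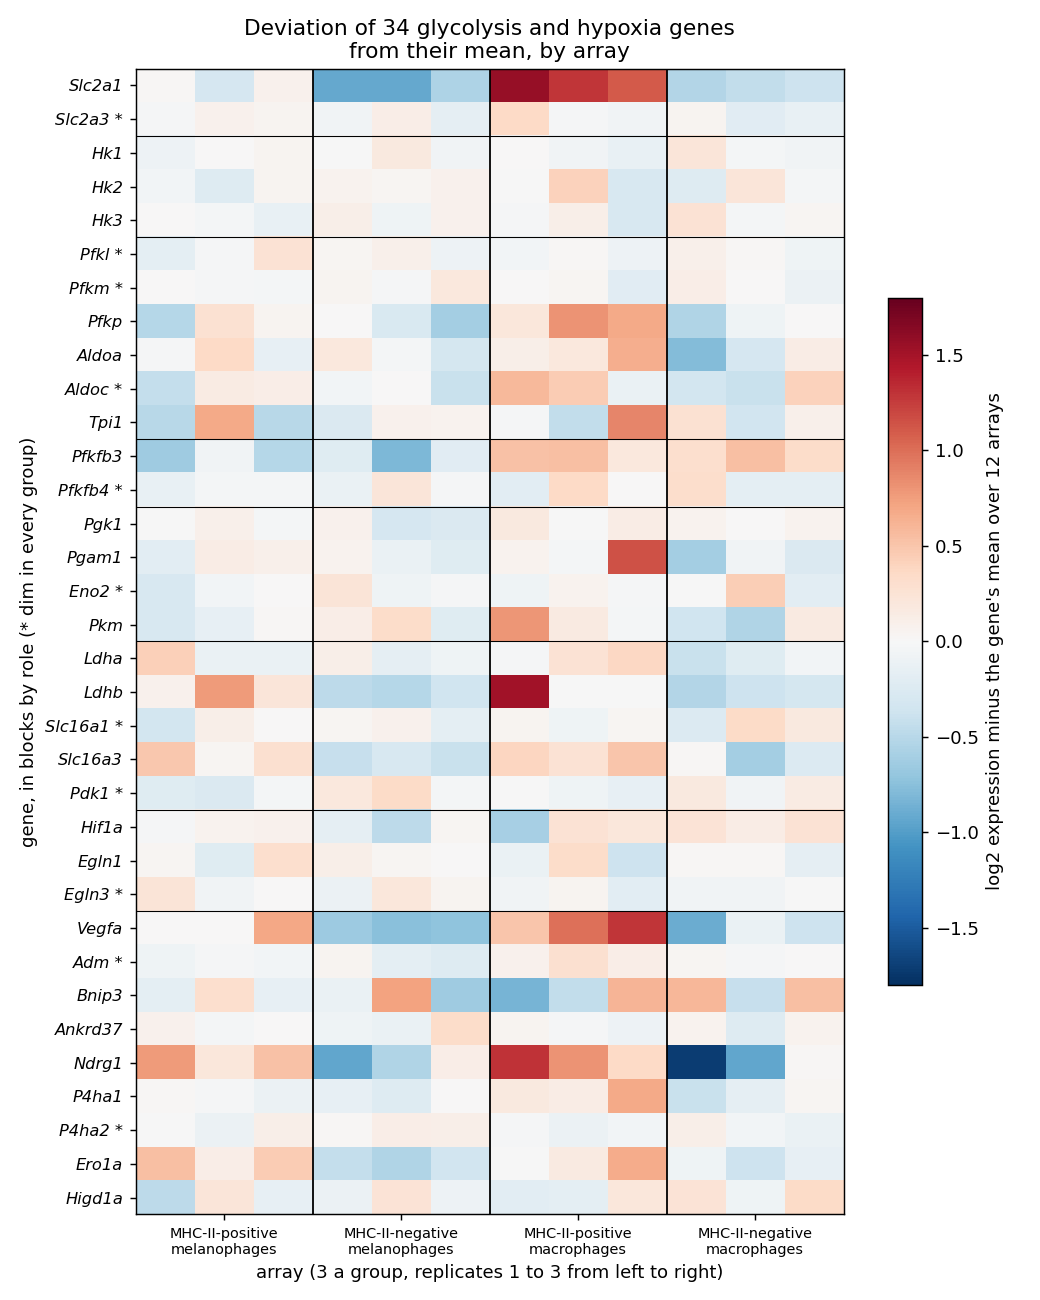
Heat map of the 34 measured genes (rows, in blocks by role) on the 12 arrays (columns, by group). Colour is the log2 level minus the gene's mean over the arrays, and asterisks mark the 11 genes dim in every group. Slc2a1, Vegfa, Slc16a3, Ero1a and Ndrg1 are warmer in each MHC-II-positive group than in its MHC-II-negative counterpart, and Pfkfb3 is cooler in both melanophage groups.

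MHC-II-positive cells were set against MHC-II-negative cells, averaged over melanophages and macrophages. The test was limma's moderated test in 1 fit of the 12 arrays, two-sided, with Benjamini-Hochberg adjustment over all 19938 genes and a threshold of 0.05. Slc2a1, Slc16a3, Vegfa and Ero1a rose in MHC-II-positive cells and no measured gene of the set fell. That is 4 of 34, or 11.8%, while 0.762% of all genes passed, 0.632% as higher. Of the 5863 genes with a mean level of at least 4 over the 12 arrays, 2.18% passed in either direction. The gene list was chosen with earlier results of these data known, so these shares are a description. Glucose import, lactate export, a secreted angiogenic factor and oxidative protein folding were each represented by 1 gene. No enzyme of the glycolytic chain passed.

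Slc2a1 encodes the main glucose importer of many cell types. Its level was 6.13, 5.82 and 6.19 in MHC-II-positive melanophages, 5.20, 5.19 and 5.55 in MHC-II-negative melanophages, 7.69, 7.39 and 7.22 in MHC-II-positive macrophages, and 5.59, 5.67 and 5.74 in MHC-II-negative macrophages. Every MHC-II-positive array lay above every MHC-II-negative array, and the MHC-II-positive macrophages stood above all the others. The averaged log2 difference was 1.25 ± 0.10 (SE), or 2.38-fold (limma, adjusted p = 0.000192).

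Vegfa encodes a growth factor for blood vessels and is a standard hypoxia-inducible factor target. Its level was 5.19, 5.18 and 5.87 in MHC-II-positive melanophages, 4.53, 4.43 and 4.46 in MHC-II-negative melanophages, 5.68, 6.16 and 6.47 in MHC-II-positive macrophages, and 4.29, 5.06 and 4.81 in MHC-II-negative macrophages. The MHC-II classes did not overlap, and the highest MHC-II-negative array, a macrophage array, came close to the lowest MHC-II-positive ones. The difference was 1.16 ± 0.18, or 2.24-fold (limma, adjusted p = 0.0135).

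Slc16a3 encodes the monocarboxylate transporter through which glycolytic cells export lactate. Its level was 5.64, 5.19 and 5.44 in MHC-II-positive melanophages, 4.74, 4.86 and 4.75 in MHC-II-negative melanophages, 5.54, 5.42 and 5.64 in MHC-II-positive macrophages, and 5.17, 4.53 and 4.90 in MHC-II-negative macrophages. The classes were separated by a narrow gap, set by the second MHC-II-positive melanophage array and the first MHC-II-negative macrophage array. The difference was 0.65 ± 0.11, or 1.57-fold (limma, adjusted p = 0.0241).

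Ero1a encodes an oxidase of the endoplasmic reticulum that drives disulfide bond formation. Its level was 6.53, 6.11 and 6.45 in MHC-II-positive melanophages, 5.56, 5.45 and 5.64 in MHC-II-negative melanophages, 5.99, 6.16 and 6.66 in MHC-II-positive macrophages, and 5.91, 5.62 and 5.85 in MHC-II-negative macrophages. The classes did not overlap, with a wide gap in melanophages and a narrow one in macrophages. The difference was 0.64 ± 0.12, or 1.56-fold (limma, adjusted p = 0.0410).

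The calls of Slc2a1 and Vegfa held in all 24 alternative settings, with adjusted p up to 0.00147 and 0.0464. Slc16a3 passed in 13 of the 24 and Ero1a in 11. With each array left out in turn, Slc16a3 passed in 4 of 12 fits, those without MHC-II-positive melanophage replicate 2, MHC-II-positive macrophage replicate 2 and MHC-II-negative macrophage replicates 1 and 2. Ero1a passed in 3 of 12, those without MHC-II-positive melanophage replicate 2 and MHC-II-positive macrophage replicates 1 and 3. Without the 2 arrays farthest from their mates, all 4 genes passed, at 1.29 ± 0.11 for Slc2a1, 0.97 ± 0.16 for Vegfa, 0.70 ± 0.10 for Slc16a3 and 0.58 ± 0.10 for Ero1a (limma, adjusted p = 0.00147, 0.0331, 0.0228 and 0.0392).

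**Figure D2:**
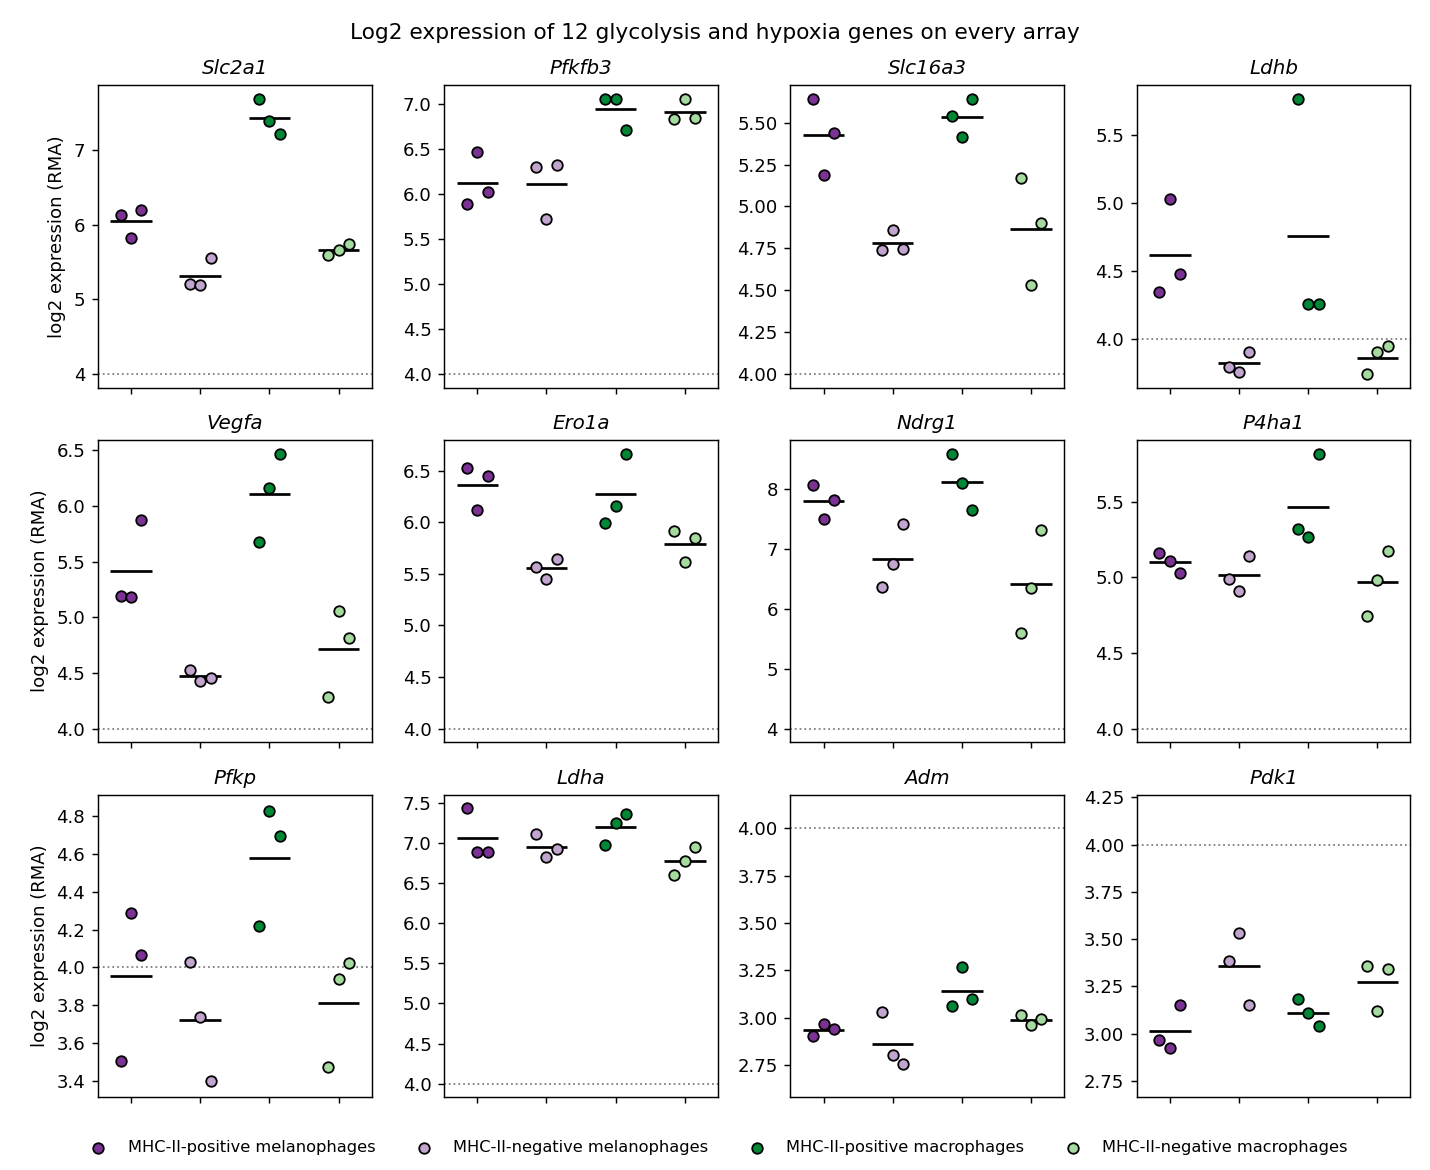
Log2 level (vertical axes) of 12 genes on the 12 arrays, with 1 dot per array, a line at each group mean and a dotted line at 4, below which a group mean is called dim. Groups run from left to right as MHC-II-positive melanophages, MHC-II-negative melanophages, MHC-II-positive macrophages and MHC-II-negative macrophages. Slc2a1 reaches 7.22 to 7.69 in MHC-II-positive macrophages, Pfkfb3 is lower in both melanophage groups, and Adm and Pdk1 lie below the dotted line throughout.

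The promoters of the 4 genes that rose are shown for the letters ACGTG, 1 form of the core hypoxia response element. Both strands were read (CACGT when read on the other strand, and CACGTG counted as both). Forms with another first letter, such as GCGTG, were not searched, so the counts cover this form alone. Windows of 250 bases before to 50 after each gene start were taken from RefSeq (GRCm38.p6), and 32 of the 34 genes were matched. A window of 24 of these 32 genes, 75.0%, held the letters. So did 24.4% of 15614 tested genes in the table and 31.6% of 4782 such genes with a mean level of at least 4. The list was drawn up from known glycolysis and hypoxia genes, so this share is a description. Below are the 250 bases before the most upstream start of each gene, 5′ to 3′ on the gene's strand, with the letters in capitals.
Slc2a1, chr4:119108495-119108744, plus strand: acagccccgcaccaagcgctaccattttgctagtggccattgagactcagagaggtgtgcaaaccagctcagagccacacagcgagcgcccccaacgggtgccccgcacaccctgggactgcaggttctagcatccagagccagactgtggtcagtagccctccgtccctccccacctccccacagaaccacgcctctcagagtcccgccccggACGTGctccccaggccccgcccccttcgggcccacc
Slc16a3, chr11:120948817-120949066, plus strand: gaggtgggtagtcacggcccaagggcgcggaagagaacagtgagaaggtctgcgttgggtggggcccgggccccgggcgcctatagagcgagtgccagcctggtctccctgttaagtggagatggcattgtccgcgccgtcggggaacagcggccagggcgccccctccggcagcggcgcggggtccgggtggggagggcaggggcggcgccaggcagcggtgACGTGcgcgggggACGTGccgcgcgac
Ero1a, chr14:45318573-45318822, minus strand: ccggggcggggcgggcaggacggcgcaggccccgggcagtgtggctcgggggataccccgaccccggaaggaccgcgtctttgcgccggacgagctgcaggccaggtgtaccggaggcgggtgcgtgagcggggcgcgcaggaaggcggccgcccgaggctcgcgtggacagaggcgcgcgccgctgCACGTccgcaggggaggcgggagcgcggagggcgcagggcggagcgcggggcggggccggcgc
Vegfa, chr17:46032378-46032627, minus strand: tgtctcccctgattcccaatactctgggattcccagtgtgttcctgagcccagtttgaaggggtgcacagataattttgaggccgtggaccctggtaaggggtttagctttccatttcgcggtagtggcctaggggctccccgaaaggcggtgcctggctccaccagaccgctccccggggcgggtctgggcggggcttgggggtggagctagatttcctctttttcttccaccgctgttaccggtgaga
Slc16a3 held 2 copies, starting 27 and 14 bases before the start. Slc2a1 and Ero1a held 1 copy each, at 36 and 63 bases before it. The Vegfa window shown held none, and the window of its other start held 1. Among the genes that did not pass, the windows of Ldha held 5 matches while those of Ldhb, Pfkp, Pdk1 and Adm held none. A match is not a measured binding site.

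Among the remaining genes, 5 more had higher values in MHC-II-positive cells at an unadjusted p under 0.05 and 1 had lower values, and none of these 6 passed the adjustment. In all, 9 of 34 genes, 26.5%, were higher at that unadjusted level, against 4.6% of all genes and 10.9% of the 5863 genes with a mean level of at least 4. The 1 lower gene compares with 4.62% of all genes. The median log2 difference of the 34 genes was 0.03, against -0.02 of all genes. Of the 34 differences 18 were above 0 and 16 below, while 59.8% of all genes were below 0. Among genes above 4 on at least 3 arrays, the median was 0.17 for genes of the set and 0.03 for all. The arrays of the classes did not overlap for 6 of the 34 genes, 17.6%, all higher in MHC-II-positive cells. The same separation was seen for 0.732% of all genes and for 1.94% of those with a mean of at least 4. Besides the 4 genes above, the 6 included Ndrg1 and Ldhb.

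Ndrg1 is a stress-responsive gene that hypoxia induces in many cell types. Its level was 8.07, 7.50 and 7.83 in MHC-II-positive melanophages, 6.36, 6.75 and 7.42 in MHC-II-negative melanophages, 8.60, 8.11 and 7.65 in MHC-II-positive macrophages, and 5.59, 6.36 and 7.32 in MHC-II-negative macrophages. All MHC-II-positive arrays were above the others, but both MHC-II-negative groups were widely spread, each with its replicate 3 close to the MHC-II-positive range. The difference of 1.33 ± 0.29 was larger than that of Slc2a1 and missed the threshold (limma, adjusted p = 0.0904), and it passed in 4 of 24 alternative settings.

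Ldhb encodes the lactate dehydrogenase subunit that favours turning lactate back into pyruvate. Its level was 4.35, 5.03 and 4.48 in MHC-II-positive melanophages, 3.79, 3.75 and 3.90 in MHC-II-negative melanophages, 5.77, 4.25 and 4.25 in MHC-II-positive macrophages, and 3.74, 3.90 and 3.94 in MHC-II-negative macrophages. The MHC-II-negative groups were dim, and the first MHC-II-positive macrophage array stood well above its mates. The difference, a lower bound, was 0.85 ± 0.25 (limma, adjusted p = 0.229), and the second probe set of Ldhb, also dim, gave 0.29.

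Ldha, the lactate dehydrogenase subunit typical of glycolytic tissue, had 7.43, 6.88 and 6.88 in MHC-II-positive melanophages, 7.11, 6.83 and 6.92 in MHC-II-negative melanophages, 6.97, 7.25 and 7.37 in MHC-II-positive macrophages, and 6.60, 6.77 and 6.95 in MHC-II-negative macrophages. The classes overlapped in melanophages and were only just apart in macrophages. The averaged difference was 0.27 ± 0.12 (limma, adjusted p = 0.527).

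Pfkp, the platelet-type phosphofructokinase, had 3.51, 4.29 and 4.06 in MHC-II-positive melanophages, 4.03, 3.74 and 3.40 in MHC-II-negative melanophages, 4.22, 4.83 and 4.69 in MHC-II-positive macrophages, and 3.47, 3.94 and 4.02 in MHC-II-negative macrophages. Only the MHC-II-positive macrophages had a mean above 4, and the melanophage groups overlapped. The difference, a lower bound, was 0.50 ± 0.17 (limma, adjusted p = 0.368).

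P4ha1 encodes the catalytic subunit of a collagen prolyl hydroxylase. It had 5.16, 5.11 and 5.03 in MHC-II-positive melanophages, 4.99, 4.91 and 5.14 in MHC-II-negative melanophages, 5.32, 5.27 and 5.82 in MHC-II-positive macrophages, and 4.74, 4.98 and 5.17 in MHC-II-negative macrophages. The MHC-II-positive macrophages were above every other array, and the melanophage groups overlapped. The difference was 0.29 ± 0.11 (limma, adjusted p = 0.398).

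Pdk1, a kinase that inhibits pyruvate dehydrogenase, had the opposite sign, at the background level of the arrays. Its level was 2.97, 2.93 and 3.15 in MHC-II-positive melanophages, 3.38, 3.53 and 3.15 in MHC-II-negative melanophages, 3.19, 3.11 and 3.04 in MHC-II-positive macrophages, and 3.36, 3.12 and 3.34 in MHC-II-negative macrophages. All 12 values were near the array medians, so the averaged difference of -0.25 ± 0.08 (limma, adjusted p = 0.291) has no readable size.

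By role, the genes that neither passed nor reached an unadjusted p under 0.05 covered most of the pathway. The 3 hexokinases had differences between -0.13 and -0.04 on their kept probe sets. The other Hk1 probe set, near the array medians, gave 0.07. The averaged difference was 0.37 ± 0.17 for the aldolase Aldoa, 0.41 ± 0.19 for the phosphoglycerate mutase Pgam1, 0.12 ± 0.07 for the phosphoglycerate kinase Pgk1, 0.17 ± 0.17 for the pyruvate kinase Pkm and 0.03 ± 0.26 for the triosephosphate isomerase Tpi1. Another Pgam1 probe set gave 0.70 and the other Pkm probe set 0.55. Aldoa and Pgam1 came near that unadjusted level (limma, unadjusted p = 0.0514 and 0.0591). Among the oxygen-sensing genes, the alpha subunit gene Hif1a and the prolyl hydroxylases Egln1 and Egln3 each had a difference of -0.01. Bnip3 at -0.23 ± 0.30, the mitochondrial gene Higd1a at -0.18 ± 0.13 and the hypoxia-responsive Ankrd37 at -0.01 ± 0.09 had differences on the other side of 0 from Vegfa and Ero1a. The 2 Bnip3 probe sets had opposite signs.

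**Figure D3:**
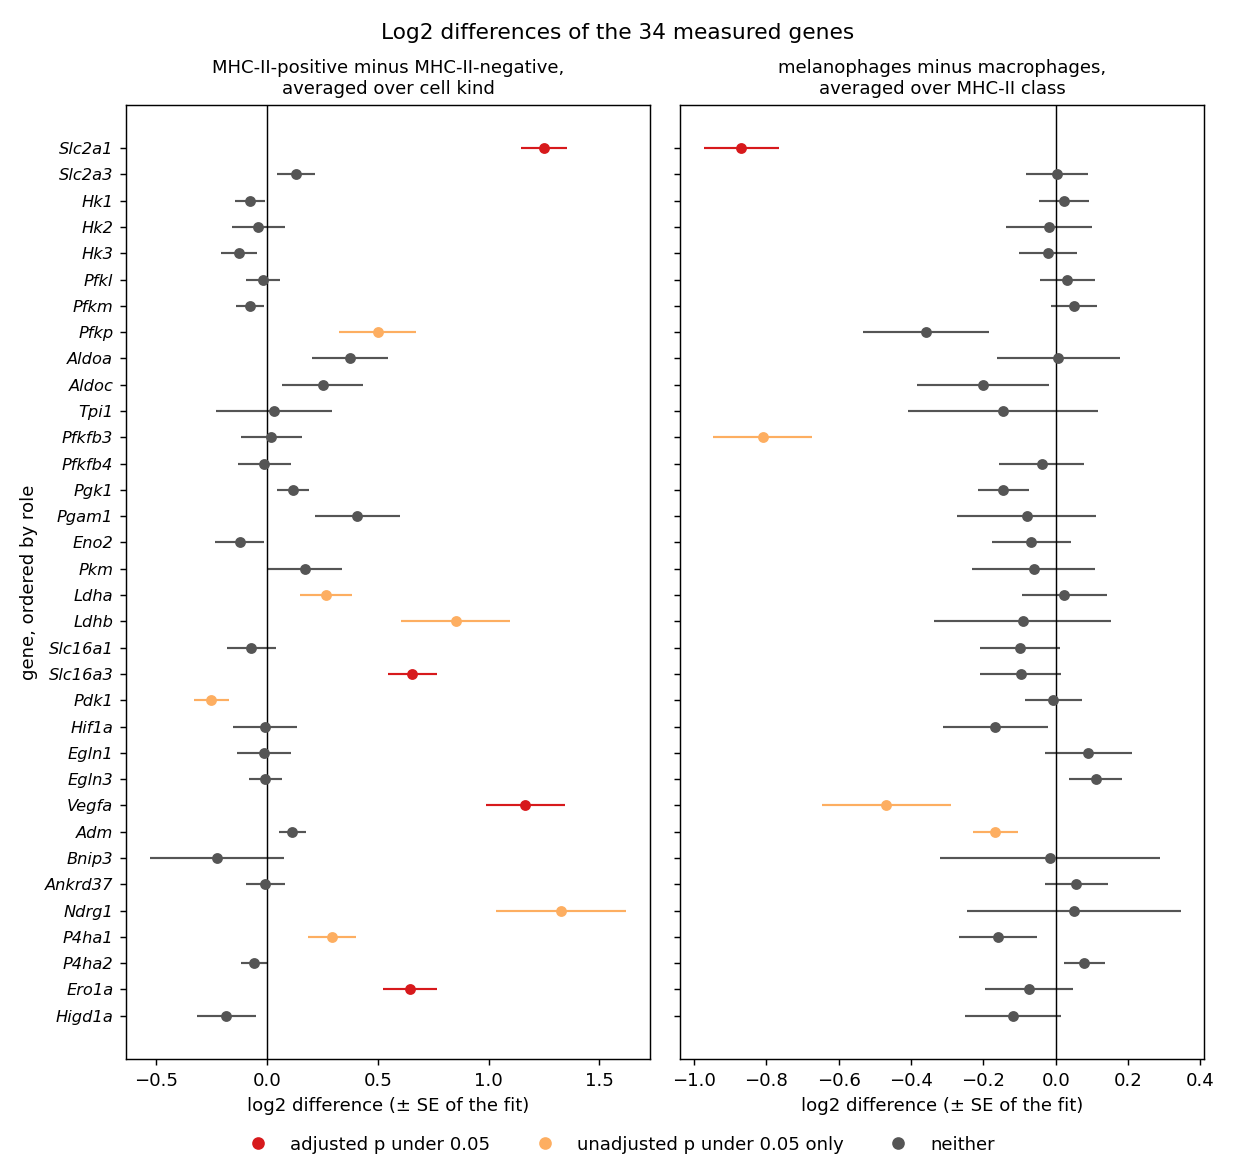
Log2 differences with SE (horizontal axes) of the 34 genes (rows), MHC-II-positive minus MHC-II-negative cells on the left and melanophages minus macrophages on the right, each averaged over the other factor. Red marks an adjusted p under 0.05 and orange an unadjusted p only. On the left Slc2a1, Slc16a3, Vegfa and Ero1a are red and lie to the right of 0, and on the right only Slc2a1 is red, at -0.87.

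The same question was asked within each cell kind. In macrophages, Slc2a1 rose 3.41-fold in MHC-II-positive cells, by 1.77 ± 0.15 (limma, adjusted p = 0.000578), and it passed in all 25 alternative settings, at 1.84 ± 0.17 without the 2 far arrays. It was the only 1 of the 34 genes that passed there, where 0.341% of all genes did. So did 0.955% of those with a mean of at least 4. Vegfa was just outside, at 1.38 ± 0.25 (adjusted p = 0.0571), and passed in 8 of 25 settings. Without the 2 far arrays it was 0.99 ± 0.24 (adjusted p = 0.205). Ndrg1 was at 1.70 ± 0.42 (adjusted p = 0.181), Slc16a3 at 0.67 ± 0.16 (adjusted p = 0.153) and Ero1a at 0.48 ± 0.17 (adjusted p = 0.481). At an unadjusted p under 0.05, 4.12% of all genes were higher, and 9.38% of those with a mean of at least 4. Of the 34 genes 12 reached that level, all higher in MHC-II-positive macrophages. Besides those 5 they were Ldhb, Ldha, Pfkp, P4ha1, Aldoa, Pgam1 and Pkm. Their differences ranged from 0.42 for Ldha to 0.90 for Ldhb. Without the 2 far arrays the differences were smaller for Pgam1 (0.18), P4ha1 (0.21), Aldoa (0.23), Ldha (0.25) and Pfkp (0.54). They were larger for Pkm (0.67) and Ldhb (1.09). With every array kept, the classes did not overlap for 11 genes, all higher. Of all genes 4.96% were higher without overlap, and of those with a mean of at least 4, 8.9%.

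In melanophages 0 of the 34 genes passed with limma, where 0.211% of all genes did. At an unadjusted p under 0.05, 6 were higher and 1 lower, against 2.67% and 3.02% of all genes. Of those with a mean of at least 4, 6.07% were higher and 3.74% lower. The 6 were Slc2a1 at 0.73 ± 0.15 (adjusted p = 0.127), Ero1a at 0.81 ± 0.17 (adjusted p = 0.160), Slc16a3 at 0.64 ± 0.16 (adjusted p = 0.273), Vegfa at 0.95 ± 0.25 (adjusted p = 0.362), Ndrg1 at 0.96 ± 0.42 and Ldhb at 0.80 ± 0.35. These 6 also had no overlap between the arrays of the classes. Of all genes 5.12% were higher without overlap, and of those with a mean of at least 4, 9.16%. The lower gene was the dim Pdk1, 1 gene against 7.13% of all genes lower without overlap. Without the far MHC-II-positive macrophage array, or without both far arrays, Ero1a passed in melanophages (adjusted p = 0.0482 without both). Those arrays are not melanophage arrays and enter through the shared estimate of the spread.

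Whether the MHC-II difference itself differed between the cell kinds was tested as an interaction. With limma 0 of the 34 genes passed, as did 0% of all genes. At an unadjusted p under 0.05, 2.2% of all genes were below 0, and 3.63% of those with a mean of at least 4. Of the 34 genes 2 were below 0 at that level. Slc2a1 had the smallest p, with a difference 1.04 ± 0.21 smaller in melanophages on the log2 scale (limma, unadjusted p = 0.000448, adjusted p = 0.9996, and at least 0.396 in every alternative). Pkm was the other, at -0.77 ± 0.34 (limma, unadjusted p = 0.0452), and its other probe set gave -0.85. The interaction of Vegfa was -0.44 ± 0.36, that of Slc16a3 -0.02 ± 0.22 and that of Ero1a 0.33 ± 0.24. No test here showed that a gene responded to MHC-II class in 1 cell kind and not in the other.

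Melanophages were set against macrophages next, averaged over MHC-II class. Slc2a1 was 1.83-fold lower in melanophages, at -0.87 ± 0.10 (limma, adjusted p = 0.0188). It was the only 1 of the 34 genes to pass, as 0.12% of all genes did and 0.0652% as lower. Of genes with a mean of at least 4, 0.392% passed. The macrophage marker Cx3cr1 fell in melanophages too, and its part in the Slc2a1 difference was not tested. The call of Slc2a1 held in 20 of 24 alternative settings and ended without MHC-II-negative melanophage replicate 1 (adjusted p = 0.0543) or 2 (0.0538), without MHC-II-negative macrophage replicate 2 (0.0681), and when all probe sets were tested (0.0536). Without the 2 far arrays it was -0.94 ± 0.11 (adjusted p = 0.0198). Of the 34 differences 23 were below 0, as were 45.2% of all genes, with a median of -0.06 against 0.01. At an unadjusted p under 0.05, 0 genes were higher and 4 were lower in melanophages. Of all genes 3.42% were lower, and of those with a mean of at least 4, 7.28%.

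Pfkfb3 makes the small sugar phosphate that switches phosphofructokinase on, and it sets the pace of glycolysis in many cells. Its level was 5.89, 6.47 and 6.02 in MHC-II-positive melanophages and 7.06, 7.06 and 6.72 in MHC-II-positive macrophages. It was 6.31, 5.72 and 6.33 in MHC-II-negative melanophages and 6.84, 7.06 and 6.85 in MHC-II-negative macrophages. All 6 melanophage arrays lay below all 6 macrophage arrays, which held for no other gene of the set. It held for 0.145% of all genes and 0.273% of those with a mean of at least 4. The averaged difference of -0.81 ± 0.14 did not pass (limma, adjusted p = 0.0702), and it was -0.89 ± 0.15 without the 2 far arrays (adjusted p = 0.0517). It passed in 5 of 24 alternative settings, with adjusted p between 0.0279 and 0.191 over all of them. Its MHC-II difference was 0.02 ± 0.14, beside 1.25 ± 0.10 for Slc2a1.

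The other genes at an unadjusted p under 0.05 were Vegfa, at -0.47 ± 0.18 (limma, adjusted p = 0.567), and Adm, at -0.17 ± 0.06 (adjusted p = 0.545). Adm had 2.90, 2.97 and 2.94 in MHC-II-positive melanophages, 3.03, 2.80 and 2.76 in MHC-II-negative melanophages, 3.06, 3.27 and 3.10 in MHC-II-positive macrophages, and 3.01, 2.96 and 2.99 in MHC-II-negative macrophages. All these values were near the array medians, so the difference has no readable size. The comparisons by cell kind and by MHC-II class use the same 12 arrays and are not independent of each other.

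Within the MHC-II-positive class, Slc2a1 was 2.62-fold lower in melanophages, at -1.39 ± 0.15 (limma, adjusted p = 0.0192), and was the only 1 of the 34 genes to pass, as 0.015% of all genes did. The call held in 16 of 25 alternative settings. It ended after renewed quantile normalization (adjusted p = 0.0571), with the title-code run as a replicate block (0.0529) and in a fit of only the 2 groups (0.310). It also ended when MHC-II-positive melanophage replicate 2 or 3, MHC-II-negative melanophage replicate 1, MHC-II-positive macrophage replicate 1 or MHC-II-negative macrophage replicate 1 or 2 was left out. Without the 2 far arrays it was -1.49 ± 0.16 (adjusted p = 0.0324). At an unadjusted p under 0.05, 3.04% of all genes were lower in melanophages, and 5.78% of those with a mean of at least 4. Of the 34 genes 6 were lower and 0 higher at that level. They were Slc2a1, Pfkfb3 at -0.82 ± 0.19, Vegfa at -0.69 ± 0.25, Pfkp at -0.63 ± 0.25, P4ha1 at -0.37 ± 0.15 and Adm at -0.21 ± 0.09. Slc2a1, Pfkfb3, P4ha1 and Adm, 4 genes, did not overlap between the groups. Of all genes 4.91% were lower without overlap, and of those with a mean of at least 4, 6.98%.

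Within the MHC-II-negative class 0 of the 34 genes passed with limma, where 0.00502% of all genes did. At an unadjusted p under 0.05, 2.54% of all genes were lower in melanophages, and 4.98% of those with a mean of at least 4. Of the 34 genes 2 were lower at that level. They were Pfkfb3 at -0.80 ± 0.19 (adjusted p = 0.460) and Slc2a1 at -0.35 ± 0.15 (adjusted p = 0.843). Both had no overlap between melanophages and macrophages, and so did Hif1a, at -0.41 ± 0.21 (limma, unadjusted p = 0.0712). Of all genes 3.91% were lower without overlap, and of those with a mean of at least 4, 5.41%. Hif1a had 6.36, 6.05 and 6.57 in MHC-II-negative melanophages and 6.78, 6.66 and 6.78 in MHC-II-negative macrophages. In the MHC-II-positive class it had 6.50, 6.59 and 6.60 in melanophages and 5.93, 6.79 and 6.73 in macrophages, where the groups overlapped.

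**Figure D4:**
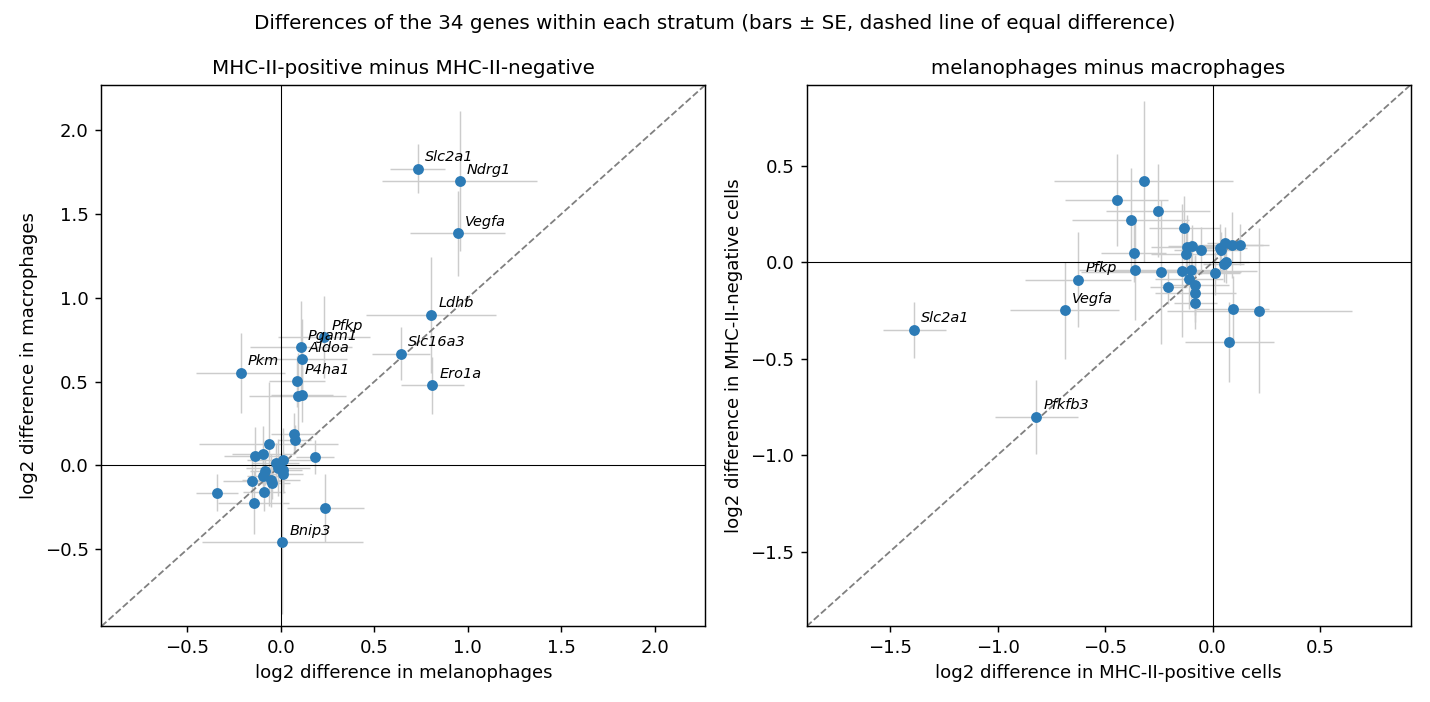
Log2 differences with SE of the 34 genes within strata. Left, MHC-II-positive minus MHC-II-negative in melanophages (horizontal) and in macrophages (vertical), and right, melanophages minus macrophages in the MHC-II-positive (horizontal) and MHC-II-negative (vertical) class, each with a dashed line of equal differences. Slc2a1 lies off that line in both panels, at 0.73 and 1.77 on the left and at -1.39 and -0.35 on the right, while Pfkfb3 lies on it on the right, at -0.82 and -0.80.

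The order of the group means was described for the genes that passed. Slc2a1 averaged 6.05 ± 0.20 (SD, n = 3) in MHC-II-positive melanophages, 5.31 ± 0.21 in MHC-II-negative melanophages, 7.43 ± 0.24 in MHC-II-positive macrophages and 5.66 ± 0.08 in MHC-II-negative macrophages, and no neighbours in that order overlapped. Vegfa means had the same order, with 5.42 ± 0.40, 4.47 ± 0.05, 6.10 ± 0.40 and 4.72 ± 0.39 in those groups, but melanophage and macrophage arrays overlapped in both MHC-II classes. Slc16a3 means in MHC-II-positive melanophages and MHC-II-positive macrophages, 5.42 ± 0.23 and 5.53 ± 0.11, were within their spread of each other. Ero1a means in those same groups, 6.36 ± 0.22 and 6.27 ± 0.35, were too.

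Neighbouring pathways were read from further lists. Of 28 measured other targets of hypoxia-inducible factor, 1 rose in MHC-II-positive cells, Mxi1, a partner of Max that opposes Myc, at 0.49 ± 0.09 (limma, adjusted p = 0.0383). For MHC-II class 4 genes of that list were higher and 0 lower at an unadjusted p under 0.05, against 4.6% and 4.62% of all genes. The median difference of the list was -0.04, against -0.02 of all genes. No gene of that list passed between melanophages and macrophages, where 3 were higher and 3 lower at an unadjusted p under 0.05. Of all genes 4.11% were higher and 3.42% lower at that level between the cell kinds. Of 11 regulators of the factor, 0 passed in either averaged comparison with limma. At an unadjusted p under 0.05 the MHC-II comparison had 1 gene higher and 1 lower, against 4.6% and 4.62% of all genes. The smallest adjusted p was that of Arnt, the beta subunit, at 0.31 ± 0.07 (adjusted p = 0.121). A list of 20 measured genes tied to macrophage glycolysis held regulators and inflammatory genes. Of these only the inflammatory interleukin gene Il1b rose in MHC-II-positive cells, at 1.56 ± 0.11 (limma, adjusted p = 9.83e-05). Between the cell kinds 0 passed with limma, and 2 were lower in melanophages at an unadjusted p under 0.05, against 3.42% of all genes.

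Routes that leave or follow glycolysis gave 1 call in the averaged comparisons. Of 30 genes of pyruvate oxidation and the tricarboxylic acid cycle, Acod1 rose in MHC-II-positive cells. It makes itaconate from a cycle intermediate in activated macrophages. Its difference was at least 0.77 ± 0.14 (limma, adjusted p = 0.0383), since both MHC-II-negative groups were dim. Of 7 pentose phosphate genes 0 passed with limma in either averaged comparison. At an unadjusted p under 0.05, 2 were higher in MHC-II-positive cells and 2 lower in melanophages, against 4.6% and 3.42% of all genes. The transketolase Tkt had the smallest adjusted p, at 0.48 ± 0.17 for MHC-II class (adjusted p = 0.391). Of 18 other glucose handling genes, 14 were dim in every group and 0 passed with limma. The MHC-II comparison had 1 gene higher and 1 lower at an unadjusted p under 0.05, against 4.6% and 4.62% of all genes. Gpd2, a mitochondrial glycerol phosphate dehydrogenase, was closest at 0.51 ± 0.22 (adjusted p = 0.512).

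Some markers of other cells moved with MHC-II class. Of 11 dendritic or Langerhans cell genes, Itgax, Cd207 and Ccr7 rose in MHC-II-positive cells, and Itgax and Cd207 fell in melanophages, as Slc2a1 did. The array mean of that list was 3.96 to 4.33 in MHC-II-positive melanophages, 3.69 to 3.94 in MHC-II-negative melanophages, 4.54 to 4.62 in MHC-II-positive macrophages and 3.85 to 3.94 in MHC-II-negative macrophages. Flt3, Zbtb46, Epcam, Xcr1 and Clec9a of that list were dim in every group. Of 5 monocyte genes Ccr2 rose in MHC-II-positive cells, by 3.23 ± 0.20, although the sort took CCR2-negative cells. The monocyte list averaged 4.54 to 4.93 in MHC-II-positive melanophages, 3.70 to 3.92 in MHC-II-negative melanophages, 4.65 to 5.38 in MHC-II-positive macrophages and 4.02 to 4.14 in MHC-II-negative macrophages. Its median MHC-II difference was only 0.03, with 3 of the 5 genes above 0 and 2 below, beside 3.23 for Ccr2. Of 7 T cell or innate lymphoid genes Il7r and Cd2 rose in MHC-II-positive cells, while Cd3d, Cd3e and Cd3g were dim in every group. Thy1 of that list had the opposite sign, at -0.62 (limma, unadjusted p under 0.05, adjusted p = 0.507). The median difference of the 7 genes was 0.05, with 5 above 0 and 2 below. That list averaged 3.96 to 4.06 in MHC-II-positive melanophages, 3.59 to 3.67 in MHC-II-negative melanophages, 4.01 to 4.11 in MHC-II-positive macrophages and 3.58 to 3.68 in MHC-II-negative macrophages. The array mean of 6 mast cell genes was 3.38 to 4.18 in MHC-II-positive melanophages, 3.39 to 4.43 in MHC-II-negative melanophages, 3.25 to 3.71 in MHC-II-positive macrophages and 3.95 to 4.34 in MHC-II-negative macrophages, without overlap in macrophages alone. All 6 had an averaged MHC-II difference below 0, as did 59.8% of all genes. Of the 6, 4 were dim in every group, and 0 passed with limma. At an unadjusted p under 0.05 were Cpa3, at -1.17 ± 0.52, and Fcer1a, at -0.26 ± 0.10, which was dim in every group and had the smallest adjusted p of the list (0.463). In the melanocyte, keratinocyte, fibroblast, endothelial, neutrophil, B cell and erythroid lists 0 genes passed in either averaged comparison with limma. At an unadjusted p under 0.05 were 3 neutrophil, 2 melanocyte, 1 keratinocyte and 1 fibroblast gene between the cell kinds, and 2 neutrophil, 1 melanocyte, 1 keratinocyte and 1 fibroblast gene for MHC-II class. Of all genes 7.52% were at that level between the cell kinds and 9.23% for MHC-II class. The smallest adjusted p values were those of Sox10 (0.466), Krt10 (0.480), Thy1 (0.507), Flt1 (0.546), S100a9 (0.280), Pax5 (0.642) and Alas2 (0.810). The part of these markers in the differences of Slc2a1, Vegfa, Slc16a3 and Ero1a was not tested.

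Genes that respond to cell handling were also read. Of 21 immediate early and heat shock genes 0 passed in either averaged comparison with limma. Between melanophages and macrophages 20 had a difference below 0, 6 of them at an unadjusted p under 0.05. Of all genes 45.2% were below 0, and 3.42% at that level. Below 0 were also 7 of 7 pentose phosphate genes, 16 of 20 genes of the macrophage glycolysis list and 14 of 30 pyruvate oxidation and cycle genes. Of the handling genes Hspa1a, a heat shock chaperone, was closest, at -0.54 ± 0.12 (limma, adjusted p = 0.172). The list averaged 7.88 to 8.23 in MHC-II-positive melanophages, 8.01 to 8.14 in MHC-II-negative melanophages, 8.10 to 8.50 in MHC-II-positive macrophages and 8.15 to 8.57 in MHC-II-negative macrophages. Its part in the lower Slc2a1 and Pfkfb3 values of melanophages was not tested.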

How the data were processed

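RNA of 3 to 20 ng per sample was amplified, labelled with biotin and hybridised to Affymetrix arrays, per the labels' protocols. The values are log2 levels that the authors deposited after RMA in oligo, an R package, according to the submitters' processing notes. Sources used here do not name a version, settings or genome build. Of 35556 probe sets, 21789 carried 1 gene symbol, 1621 several and 12146 none, and 999 genes had more than 1 probe set. Per gene the probe set with the highest 12-array mean was kept, giving 19938 genes. The members and all gene lists were chosen with earlier results of these data known. limma 3.58.1 (R 4.3.3) fitted the 4 group means over 12 arrays, with 8 residual degrees of freedom and empirical Bayes moderation. There were 7 comparisons, each adjusted by Benjamini-Hochberg at 0.05, two-sided, after tests on simulated data. Genes with a call, or with an unadjusted p under 0.05 in an averaged comparison, were described with their 12 values. The other members were given by role. Of each other list, called genes or else the gene with the smallest adjusted p were named. For the reported values no further normalization was applied, and renewed normalizations were alternatives. The number of arrays limits the precision. No 2 arrays held identical values. Promoters were RefSeq sequences.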

Additional observations from a re-analysis of the deposited data

How the results depend on the processing

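With limma, 0 of the 34 genes passed in the interaction and within the MHC-II-negative class in every alternative run. No count reversed its direction. For MHC-II class averaged over the cell kinds, the 4 calls became 2 after renewed quantile normalization or cyclic loess, and 2 to 4 with 1 array left out in turn. They became 5, with Ndrg1 added, under either filter on dim genes, 3 when every probe set was tested, without Ero1a, and 3 with an intensity trend, with Ndrg1 and without Slc16a3 and Ero1a. For cell kind averaged over MHC-II class, the 1 call became 2, with Pfkfb3 added, under either filter on dim genes, quantile normalization, cyclic loess or array weights. It became 0 when every probe set was tested, and 0 to 1 with 1 array left out. Within MHC-II-positive cells the 1 call became 0 after quantile normalization, with the title-code run as a replicate block and in a fit of only the 2 groups, and 0 to 1 with 1 array left out. Within macrophages the 1 call became 2, with Vegfa added, under either filter, quantile normalization, cyclic loess, an intensity trend or the replicate block, and 1 to 2 with 1 array left out. Within melanophages the 0 calls became 1, Ero1a, without both far arrays, and 0 to 1 with 1 array left out. The filters test fewer genes and the 2-group fit uses fewer arrays, and for the other settings the cause was not tested. Over the settings, all genes called numbered 96 to 215 for MHC-II class and 1 to 117 for cell kind. Codes in the titles fall into 3 runs of 1 array per group, and no label says what a run is. Deviations of arrays of the same run correlated between -0.25 and 0.27, with a median of -0.03 over 18 pairs. The median was 0.06 over 36 pairs of arrays that differed in both run and group. Among arrays of other groups, 5 of the 12 arrays correlated best with an array of their own run. These correlations run over all genes and cannot show whether a run affected single genes. The 11 genes near the array medians cannot show a change below their background.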
